A study of Mus musculus with 19 samples.

Results

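The receptor chains for interferons and for IL-10, and the Janus kinases bound to them, were followed in CD4+FoxP3-GFP+ regulatory T cells (Tregs) by bulk RNA-seq. Their 9 genes were taken by symbol from a table of counts for 24982 genes, and all 9 passed the filter on low counts that 11464 genes passed. They are the chains of the interferon gamma receptor (*Ifngr1* and *Ifngr2*), of the type I interferon receptor (*Ifnar1* and *Ifnar2*) and of the IL-10 receptor (*Il10ra* and *Il10rb*), with the kinases *Jak1*, *Jak2* and *Tyk2*. Tregs were sorted by FACS as CD44high or CD44low from the axillary, brachial and inguinal lymph nodes of Foxp3DTR mice, in which the *Foxp3* locus drives a diphtheria toxin receptor fused to GFP. All animals in the 4 groups carried this allele, and the labels name no diphtheria toxin treatment. Injured mice had received a scald burn, were sampled 7 days later, and gave 4 CD44high and 6 CD44low libraries. Uninjured mice had a sham procedure and gave 4 CD44high and 5 CD44low libraries, so that there were 19 libraries in all. The labels do not say whether a library came from 1 mouse or several, so p-values measure only the spread between these libraries, which may be technical. Among the injured CD44low libraries, 3 are labelled with a further number (1_2, 4_2 and 5_2), and no source used here says what it means.

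These receptors belong to the class II cytokine receptor family. Each works as a pair of chains: one binds the ligand with a kinase on its tail, the other completes the complex, and the kinases then phosphorylate STAT proteins that enter the nucleus. JAK1 is bound to IFNGR1, IFNAR2 and IL10RA, JAK2 to IFNGR2, and TYK2 to IFNAR1 and IL10RB. IL-10 receptor signalling through STAT3 is known to be needed for Tregs to restrain some forms of inflammation, and interferons are known to act on Tregs as well.

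Between 5582234 and 9433610 reads per library were counted on genes. Treg markers (*Foxp3*, *Il2ra*, *Ctla4*, *Ikzf2*, *Cd4* and *Cd3e*) summed to between 3139.6 and 4377 CPM (scaled to library totals after normalization) in every library. Of this sum *Cd3e* gave 1265 to 1603 CPM and *Foxp3* 47.7 to 181 CPM. Single markers differed in both directions. In uninjured mice *Ctla4* averaged 1051 CPM in CD44high and 211 CPM in CD44low libraries, and *Il2ra* 543 and 834 CPM. Transcripts of *Cd44*, the sort marker, lay between 369 and 626 CPM in CD44high and between 102 and 156 CPM in CD44low libraries. Markers of other cells were also present, and some differed between the subsets. Over all libraries 6 B cell markers summed to 74.9 to 219.5 CPM and 6 CD8 and NK cell markers to 67.3 to 102.5 CPM. Both of these sums overlapped between the subsets. The sum of 6 dendritic cell markers was 31.1 to 43.7 CPM in CD44high and 0.844 to 4.57 CPM in CD44low libraries of uninjured mice, and 19.3 to 25.2 CPM and 1.21 to 8.27 CPM in those of injured mice. In the same order of groups, the sum of 7 macrophage and monocyte markers was 67.0 to 139, 19.8 to 39.3, 95.2 to 244 and 33.4 to 153 CPM. The sum of 6 stroma and endothelium markers went the other way, at 59.3 to 73.5, 187 to 219, 78.3 to 114 and 135 to 230.4 CPM. Nearly all of it was *Pecam1*, an adhesion molecule. *Col1a1*, the other gene of that list that passed the filter, was instead higher in CD44high Tregs. It averaged 2.36, 0.0568, 1.50 and 0.263 CPM in the same order of groups, so the sum does not describe stroma. In bulk samples, fewer cells of a type and less RNA per cell cannot be told apart.

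CPM per kilobase of transcript (RPKM) allow genes to be compared with each other. On this scale *Jak1* and *Ifngr1* stood highest and *Ifngr2* lowest in all 4 groups, as the plot of levels per transcript length shows. In CD44high Tregs of uninjured mice *Jak1* averaged 219 ± 13.6 RPKM (SD, n = 4), followed by *Ifngr1* at 151 ± 13.9 RPKM. *Il10rb* at 71.9 ± 4.22 and *Il10ra* at 68.4 ± 8.26 RPKM came next, and their libraries overlapped. The type I interferon receptor chains *Ifnar2* and *Ifnar1*, at 44.7 ± 5.95 and 38.2 ± 2.82 RPKM, also overlapped, and so did *Tyk2* at 30.1 ± 6.53 and *Jak2* at 23.8 ± 3.02 RPKM. *Ifngr2*, at 12.4 ± 2.97 RPKM, lay below all of them without overlap. In CD44low Tregs of uninjured mice *Il10ra* had a lower place in this order. It averaged 24.2 ± 4.55 RPKM (SD, n = 5), with libraries that overlapped those of *Jak2* above it and *Ifngr2* below it. In CD44low Tregs of injured mice *Ifngr1* had the highest mean, 376 ± 41.6 RPKM (SD, n = 6), with libraries that overlapped those of *Jak1* at 336 ± 61.1 RPKM. These levels rest on the length of 1 transcript per gene. With the length of all annotated exons, *Il10rb* of CD44high uninjured libraries was 34.9 RPKM and stood below *Il10ra*, and *Tyk2* replaced *Ifngr2* as the lowest gene of both CD44low groups.

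**Figure D1:**
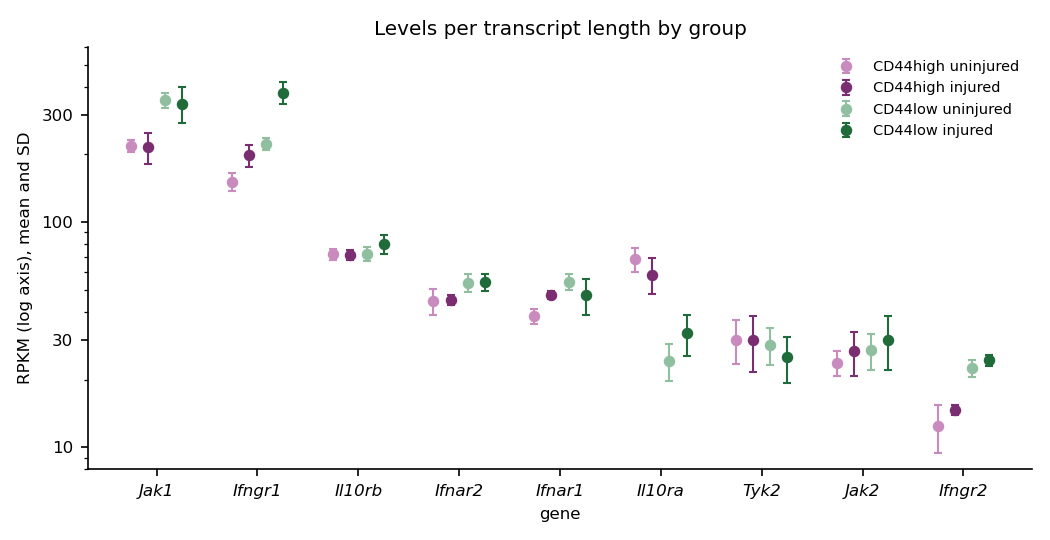
Mean RPKM (log axis) with SD of each of the 9 genes in the 4 groups (4 CD44high uninjured, 4 CD44high injured, 5 CD44low uninjured and 6 CD44low injured libraries), ordered by their mean over groups. *Jak1* and *Ifngr1* stand highest, and the CD44high points of *Il10ra* lie above its CD44low points (68.4 against 24.2 RPKM in uninjured mice).

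The genes of 4 of the 6 chains lie next to each other on mouse chromosome 16 (plus strand), in the order *Ifnar2*, *Il10rb*, *Ifnar1* and *Ifngr2* in GENCODE vM21. *Ifngr1* is on chromosome 10, and *Il10ra* and *Tyk2* are both on chromosome 9 with 302 coding genes between them. *Ifnar2* and *Il10rb* share 315 and 569 exonic bases with the read-through gene *Gm21970* on the same strand, and *Tyk2* shares 554 with the antisense gene *1700084C06Rik*. How the authors' counting treated reads in those bases is stated in no source used here. Promoter sequence from 250 bases before to 50 bases after the start was present for 7 of the 9 genes in RefSeq (GRCm38.p6), without *Il10ra* and *Il10rb*. The 4 interferon receptor promoters are shown because these genes were lower together in CD44high Tregs of uninjured mice, as given further on. Capitals mark matches on either strand of the GC box GGGCGG and of the STAT-type motif TTCNNNGAA. They lie at chr10:19591699-19591998 (*Ifngr1*), chr16:91546809-91547108 (*Ifngr2*), chr16:91484965-91485264 (*Ifnar1*) and chr16:91372533-91372832 (*Ifnar2*), all on the plus strand and written 5′ to 3′.
Ifngr1: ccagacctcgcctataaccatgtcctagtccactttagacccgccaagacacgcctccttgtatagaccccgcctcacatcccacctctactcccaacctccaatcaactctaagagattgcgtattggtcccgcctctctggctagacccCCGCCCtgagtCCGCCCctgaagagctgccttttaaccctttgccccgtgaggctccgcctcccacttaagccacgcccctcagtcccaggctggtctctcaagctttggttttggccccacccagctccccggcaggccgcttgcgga
Ifngr2: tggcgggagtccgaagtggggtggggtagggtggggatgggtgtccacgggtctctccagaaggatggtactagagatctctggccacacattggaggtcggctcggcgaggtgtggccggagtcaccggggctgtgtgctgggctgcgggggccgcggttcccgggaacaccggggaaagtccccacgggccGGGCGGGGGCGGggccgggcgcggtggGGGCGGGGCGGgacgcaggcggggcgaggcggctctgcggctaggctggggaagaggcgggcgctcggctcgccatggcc
Ifnar1: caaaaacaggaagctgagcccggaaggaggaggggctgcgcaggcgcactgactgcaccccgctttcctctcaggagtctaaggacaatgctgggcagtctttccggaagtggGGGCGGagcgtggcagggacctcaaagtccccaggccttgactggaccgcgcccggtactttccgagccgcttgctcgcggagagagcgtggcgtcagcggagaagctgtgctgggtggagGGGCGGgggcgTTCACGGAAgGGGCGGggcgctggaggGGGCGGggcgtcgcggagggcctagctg
Ifnar2: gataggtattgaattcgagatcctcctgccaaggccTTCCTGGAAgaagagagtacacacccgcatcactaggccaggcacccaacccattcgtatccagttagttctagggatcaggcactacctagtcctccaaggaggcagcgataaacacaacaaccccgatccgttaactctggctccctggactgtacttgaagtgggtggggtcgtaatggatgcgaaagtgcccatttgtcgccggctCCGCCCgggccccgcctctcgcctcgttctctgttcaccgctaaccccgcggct
The letters GGGCGG were found in all 7 promoters, against 35.7% of 32851 mouse promoters of this length. Those 32851 were not limited to genes that passed the filter on low counts here, and the share among such genes was not counted for any motif. TTCNNNGAA was found in 2 of the 7, *Ifnar1* and *Ifnar2*, against 8.30% of all promoters. The core of the interferon-stimulated response element, GAAA, any 2 bases and GAAA again (3.44% of all promoters), and the forkhead letters GTAAACA (3.65%) were found in 0 of the 7, which says only that these letters are not in this window. In *Ifnar1* the TTCNNNGAA match stands between GC boxes close to the start, and in *Ifnar2* it lies near the far end of the window.

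The subsets were first compared in uninjured mice. In CD44high Tregs *Il10ra* was higher and both interferon gamma receptor chains, both type I interferon receptor chains and *Jak1* were lower than in CD44low Tregs, while *Il10rb*, *Jak2* and *Tyk2* did not pass the test. Thus 6 of 9 genes passed an adjusted p of 0.05 (edgeR, quasi-likelihood, Benjamini-Hochberg), 1 higher and 5 lower, where 46.1% of all genes tested passed (24.7% higher and 21.3% lower). The median log2 fold change was -0.27 over the 9 genes and 0.01 over all genes. In injured mice 5 of 9 genes passed, 1 higher and 4 lower, where 37.4% of all genes passed (20.1% higher and 17.2% lower), and the medians were -0.17 and 0.00. At the study's own threshold, a p under 1e-06 with a 2-fold change, *Il10ra* in uninjured mice was the single gene of the 9 that passed, where 8.3% of all genes did. The threshold was applied here to p-values from edgeR, whereas the study used DESeq2, so the counts can differ from the study's. At that threshold 0 of the 9 passed in the injured subsets (6% of all genes), after injury in CD44high (0.148%) or CD44low Tregs (0.122%), or in the interaction (0.0872%). The share of all genes without overlap between the libraries of the subsets was 40.7% in uninjured and 24.8% in injured mice.

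**Figure D2:**
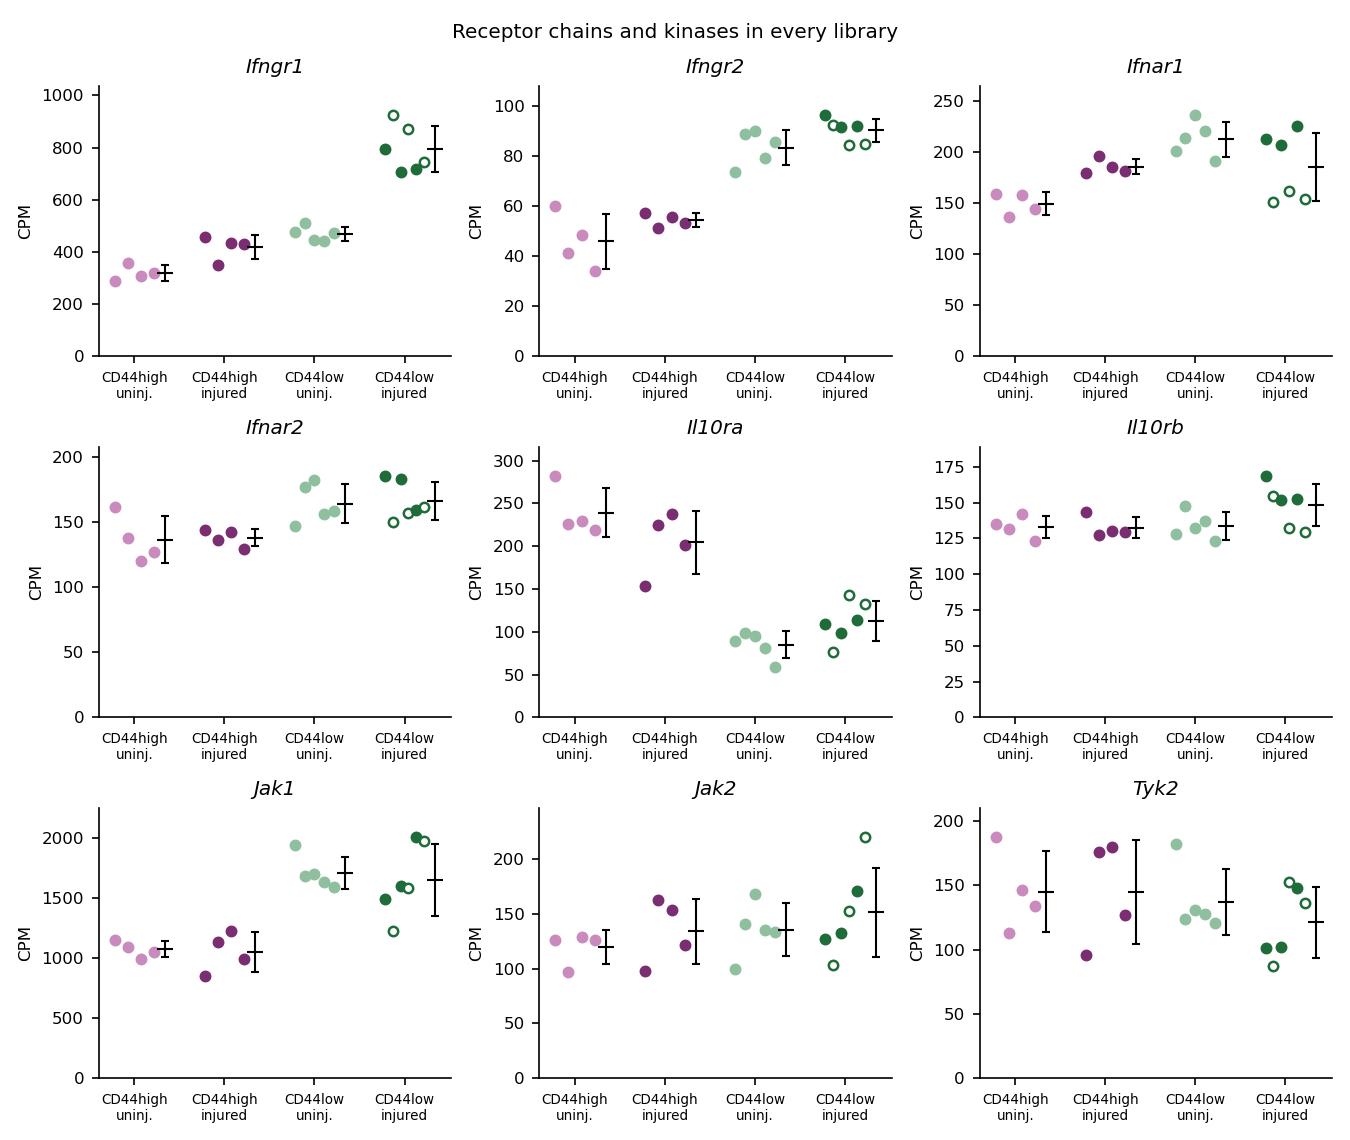
CPM of each gene in each library (points), with the mean and SD of each group beside them (black), and open points for the injured CD44low libraries that carry a second number. Each axis starts at 0, *Il10ra* is higher and *Ifngr2* lower in all CD44high libraries, and *Ifngr1* is highest in the 6 injured CD44low libraries, between 708 and 925 CPM.

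*Il10ra* encodes the chain that binds IL-10. In CD44high Tregs of uninjured mice it stood at 282, 226, 229.8 and 219 CPM in libraries 2, 3, 4 and 5. In CD44low Tregs of uninjured mice it stood at 89.7, 98.6, 95.1, 81.2 and 58.7 CPM in libraries 1 to 5. Every CD44high library was above every CD44low library, and the log2 fold change was 1.50 ± 0.16 (SE), or 2.82-fold (adjusted p = 8.4e-08, edgeR). In injured mice the CD44high libraries 2, 3, 4 and 5 held 154, 224, 238 and 201 CPM. The 6 CD44low libraries of injured mice ranged from 76.9 to 143 CPM with a median of 111 CPM. The groups again did not overlap, although CD44high library 2 came close to CD44low library 4_2, and the log2 fold change was 0.86 ± 0.16 (adjusted p = 0.000111). Dendritic cell and macrophage markers, given above, moved with *Il10ra* between the subsets. All 6 dendritic cell markers and all 5 tested macrophage markers passed as higher in CD44high Tregs of uninjured mice, against 24.7% of all genes. In injured mice 3 of 6 and 2 of 5 passed as higher, against 20.1% of all genes. The part of these markers in the difference of *Il10ra* was not tested.

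*Il10rb* encodes the other chain of the IL-10 receptor, which also serves receptors for IL-22 and lambda interferons. It stood at 135, 132, 142 and 123 CPM in CD44high and at 128, 148, 132, 137 and 123 CPM in CD44low libraries of uninjured mice. The groups overlapped over most of their range, and the log2 fold change was -0.01 with a 95% interval from -0.21 to 0.19 (adjusted p = 0.949). In injured mice CD44high libraries held 143, 127, 129.9 and 129 CPM, and CD44low libraries ranged from 129.6 to 169 CPM around a median of 152 CPM. The interval of that difference ran from -0.35 to 0.03. Without the libraries of a second number the difference was -0.25 (adjusted p = 0.0467).

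Both chains of the interferon gamma receptor were lower in CD44high Tregs with and without injury. *Ifngr1*, the chain that binds interferon gamma, stood at 289, 359, 309 and 319 CPM in CD44high and at 475, 512, 447, 441 and 471 CPM in CD44low libraries of uninjured mice. No CD44high library reached the lowest CD44low library, and the log2 fold change was -0.56 ± 0.10 (adjusted p = 8.74e-05). In injured mice CD44high libraries held 457, 351, 433 and 431 CPM, and CD44low libraries lay between 708 and 925 CPM with a median of 769.9 CPM. The groups lay far apart, with a log2 fold change of -0.92 ± 0.10 (adjusted p = 6.82e-08).

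*Ifngr2*, the signalling chain that brings in JAK2, stood at 59.9, 41.0, 48.5 and 34.2 CPM in CD44high and at 73.3, 88.7, 89.9, 79.1 and 85.4 CPM in CD44low libraries of uninjured mice. The CD44high libraries were all lower and more spread out, and the log2 fold change was -0.86 ± 0.13 (adjusted p = 7.31e-06). In injured mice CD44high libraries held 57.4, 51.4, 55.7 and 53.1 CPM and CD44low libraries between 84.3 and 96.3 CPM, with a median of 91.6 CPM. They again did not overlap, and the log2 fold change was -0.73 ± 0.12 (adjusted p = 4.56e-05).

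*Ifnar1*, the type I interferon receptor chain that carries TYK2, differed between the subsets in uninjured mice. It stood at 159, 136, 158 and 144 CPM in CD44high and at 200.4, 213, 236, 220.0 and 191 CPM in CD44low libraries. The groups did not overlap, and the log2 fold change was -0.51 ± 0.12 (adjusted p = 0.00122). In injured mice CD44high libraries held 179.7, 196, 185 and 181 CPM, all within the span of the CD44low libraries. Those CD44low libraries lay in separate ranges according to their labels. Libraries 1, 2 and 5 held 207 to 225 CPM, while 1_2, 4_2 and 5_2 held 151 to 161 CPM. None of the other 8 genes showed such a separation. How many of all genes tested separate in this way was not counted, so it cannot be called particular to *Ifnar1*. The log2 fold change between the subsets was 0.00 with an interval from -0.23 to 0.24 (adjusted p = 0.984). It was -0.21 (adjusted p = 0.0882) without the libraries of a second number and 0.23 (adjusted p = 0.0758) without the other 3.

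*Ifnar2*, the chain that binds type I interferon with high affinity, differed less. It stood at 161, 137, 119.8 and 127 CPM in CD44high and at 147, 176, 182, 156 and 159 CPM in CD44low libraries of uninjured mice. CD44high library 2 lay within the CD44low range, and the log2 fold change was -0.27 ± 0.10 (adjusted p = 0.0374). In injured mice it stood at 144, 136, 143 and 129 CPM in CD44high libraries and between 150.0 and 185 CPM in CD44low libraries, with a median of 159.9 CPM. These groups did not overlap, and the log2 fold change was -0.27 ± 0.10 (adjusted p = 0.0374). Each of these calls was lost when certain single libraries were left out. In uninjured mice these were CD44high 3, 4 and 5 and CD44low 2 and 3 (adjusted p between 0.0569 and 0.141), and in injured mice CD44high 3, 4 and 5 and CD44low 1 and 2 (between 0.0534 and 0.117). With no filter on low counts neither call passed (adjusted p = 0.0619 and 0.0518), and without libraries 1, 2 and 5 the value in injured mice was -0.20 (adjusted p = 0.178).

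Of the kinases, *Jak1* alone passed the test between the subsets. JAK1 is shared by the 3 receptors and by receptors of the common gamma chain family. *Jak1* stood at 1156, 1091, 997 and 1052 CPM in CD44high and at 1942, 1682, 1698, 1636 and 1595 CPM in CD44low libraries of uninjured mice. The groups lay well apart, with a log2 fold change of -0.67 ± 0.13 (adjusted p = 0.000126). In injured mice CD44high libraries held 854, 1137, 1230.0 and 993 CPM, and CD44low libraries ranged from 1228 to 2011 CPM around a median of 1594 CPM. The groups met at CD44high library 4 and CD44low library 1_2, and the log2 fold change was -0.65 ± 0.12 (adjusted p = 0.000174).

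*Jak2* and *Tyk2*, the other two kinases, overlapped between the subsets and had wide intervals. *Jak2* ranged from 97.0 to 129 CPM in CD44high and from 99.7 to 168 CPM in CD44low libraries of uninjured mice, and from 98.1 to 163 and 104 to 220.0 CPM in injured mice. The 95% interval of its log2 fold change between the subsets ran from -0.56 to 0.20 in uninjured and from -0.54 to 0.19 in injured mice. *Tyk2* ranged from 113 to 188 CPM in CD44high and from 121 to 182 CPM in CD44low libraries of uninjured mice, and from 95.9 to 180.0 and 87.2 to 152 CPM in injured mice. Its intervals ran from -0.31 to 0.48 and from -0.12 to 0.64. Differences within these intervals could not be detected for either kinase.

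**Figure D3:**
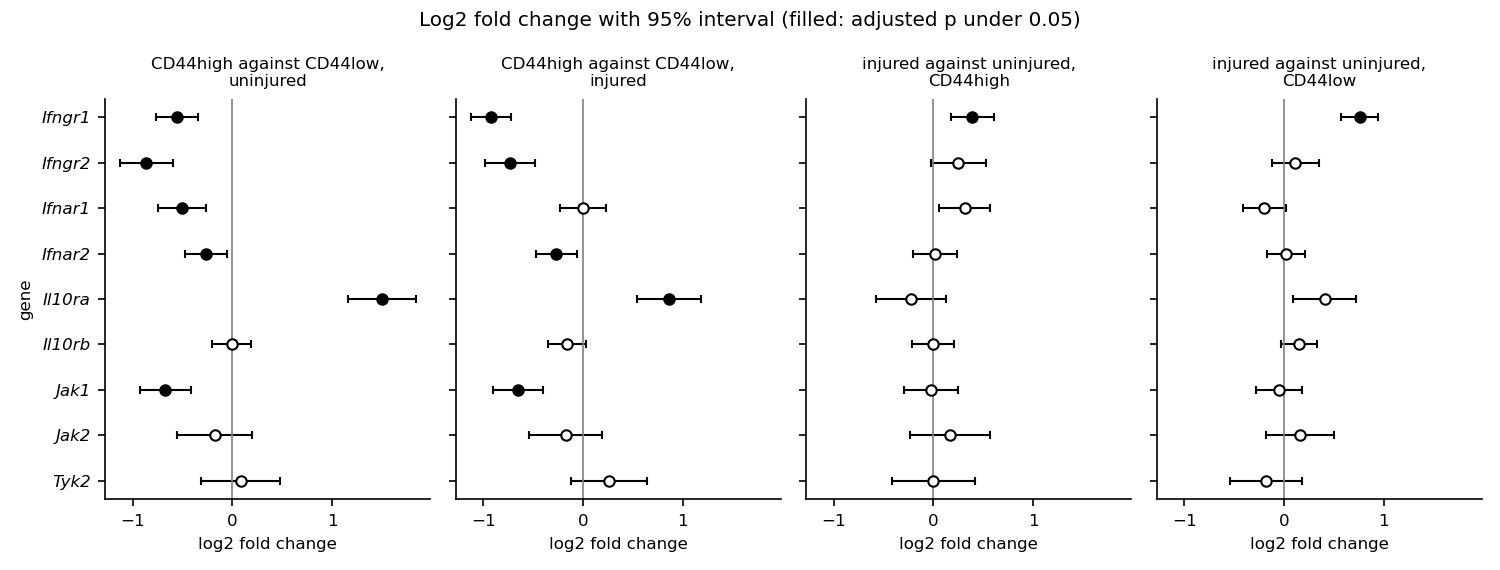
Log2 fold change (x axis) of the 9 genes with its 95% interval in the 4 comparisons, filled where the adjusted p (edgeR) was under 0.05. *Il10ra* lies to the right in both comparisons of the subsets (1.50 and 0.86), 5 genes lie to the left in uninjured mice, and *Ifngr1* is the filled point in each comparison of injury (0.39 and 0.76).

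Injury was then compared within each subset, where *Ifngr1* rose in both and no other gene of the 9 passed the test. In CD44low Tregs 1 of 9 genes passed, where 7.6% of all genes tested did (4.24% higher and 3.36% lower). In CD44high Tregs 1 of 9 passed, where 2.38% of all genes did (1.06% higher and 1.33% lower). The libraries of injured and uninjured mice did not overlap for 4.68% of all genes in CD44low and for 13.3% in CD44high Tregs. The median log2 fold change over the 9 genes was 0.12 in CD44low and 0.02 in CD44high Tregs, against 0.01 and -0.02 over all genes.

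In CD44low Tregs every injured library (708 to 925 CPM of *Ifngr1*) was above every uninjured library (441 to 512 CPM). Its log2 fold change was 0.76 ± 0.09, or 1.69-fold (adjusted p = 2.69e-05, edgeR). In CD44high Tregs the injured libraries (351 to 457 CPM) and the uninjured libraries (289 to 359 CPM) overlapped at 1 library each. The log2 fold change there was 0.39 ± 0.11, or 1.31-fold (adjusted p = 0.0487). That call was lost when CD44high library 2, 4 or 5 of either uninjured or injured mice was left out (adjusted p between 0.0994 and 0.144). It was also lost with the first number of the label as a replicate block (0.39, adjusted p = 0.0812) and with no filter on low counts (0.41, adjusted p = 0.0525). In the same CD44high comparison the sum of 5 neutrophil markers was 0 to 0.834 CPM in uninjured and 3.85 to 20.01 CPM in injured libraries. The sum of stroma and endothelium markers, given above and nearly all *Pecam1*, did not overlap either. The part of these markers in this value of *Ifngr1* was not tested. The interaction of subset and injury for *Ifngr1* was -0.37 ± 0.14 on the log2 scale (CD44high minus CD44low) and did not pass the test (adjusted p = 0.282). In the same CD44low comparison *Lyz2* and *Itgam*, of the macrophage and monocyte list, were higher after injury. So were 1 of 2 tested neutrophil markers and 1 of 6 CD8 and NK cell markers, against 4.24% of all genes. The sum of 5 neutrophil markers was 0 to 1.69 CPM in uninjured and 0 to 31.4 CPM in injured CD44low libraries. The part of these markers in the value of *Ifngr1* there was not tested. Libraries 1_2, 4_2 and 5_2 (744 to 925 CPM) and libraries 1, 2 and 5 (708 to 795 CPM) of this group both stood above all uninjured CD44low libraries.

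The partner chain *Ifngr2* had log2 fold changes of 0.25 ± 0.13 in CD44high (adjusted p = 0.399) and 0.11 ± 0.11 in CD44low Tregs (adjusted p = 0.545). Its interval in CD44low Tregs ended at 0.35, below the estimate for *Ifngr1*. *Ifnar1* after injury was 0.31 ± 0.12 in CD44high Tregs, where all injured libraries stood above all uninjured ones, and did not pass the test (adjusted p = 0.207). It passed when the compared groups were fitted alone (adjusted p = 0.0455) or the libraries of a second number were left out (adjusted p = 0.0367). In CD44low Tregs *Ifnar1* was at -0.20 ± 0.11 (adjusted p = 0.239). That value was 0.02 (adjusted p = 0.912) without libraries 1_2, 4_2 and 5_2 and -0.43 (adjusted p = 0.0209) without libraries 1, 2 and 5. The interaction for *Ifnar1* was 0.51 ± 0.16 (adjusted p = 0.174), and 0.75 (adjusted p = 0.00621) without libraries 1, 2 and 5.

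*Il10ra* had a log2 fold change after injury of 0.41 ± 0.15 in CD44low (adjusted p = 0.0909) and of -0.23 ± 0.17 in CD44high Tregs (adjusted p = 0.584). The estimates had opposite signs, and their difference of -0.63 ± 0.23 did not pass the test (adjusted p = 0.254). Without CD44low library 1_2 of injured mice, the lowest of its group, the first value was 0.49 (adjusted p = 0.046). *Ifnar2*, *Il10rb*, *Jak1*, *Jak2* and *Tyk2* had log2 fold changes between -0.18 and 0.16 after injury in both subsets. The narrowest of their intervals, for *Il10rb* in CD44low Tregs, ran from -0.03 to 0.33, and the widest, for *Tyk2* in CD44high Tregs, from -0.42 to 0.42. In the interaction 0 of 9 genes passed in edgeR, and 0 in DESeq2, where 0.645% of all genes tested did (0.192% higher and 0.454% lower), and 3 of the 9 (*Ifnar1*, *Il10ra* and *Ifngr1*) had an unadjusted p under 0.05 (0.0045, 0.0107 and 0.0141), as did 10.9% of all genes tested.

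The ratio of the chains of a receptor within a library does not depend on the scaling between libraries. *Il10ra* to *Il10rb* was 0.953 ± 0.107 (RPKM to RPKM, SD, n = 4) in CD44high and 0.334 ± 0.0522 (n = 5) in CD44low Tregs of uninjured mice, without overlap. In injured mice it was 0.823 ± 0.181 (n = 4) and 0.410 ± 0.122 (n = 6), and the groups met, since CD44high library 2 at 0.568 lay just below CD44low library 4_2 at 0.572. *Ifngr1* to *Ifngr2* was 9.95 ± 0.951 in CD44low Tregs of uninjured mice, with libraries between 8.74 and 11.4. In CD44low Tregs of injured mice it was 15.5 ± 1.94, with libraries between 13.6 and 18.1, all above the uninjured ones. In CD44high Tregs this ratio was 12.8 ± 3.69 without injury and 13.5 ± 1.02 with it, and the libraries overlapped. *Ifnar1* to *Ifnar2* had group means between 0.864 and 1.05, and its libraries overlapped in all 4 comparisons. The absolute ratios depend on the transcript length chosen, whereas the fold differences between groups do not.

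**Figure D4:**
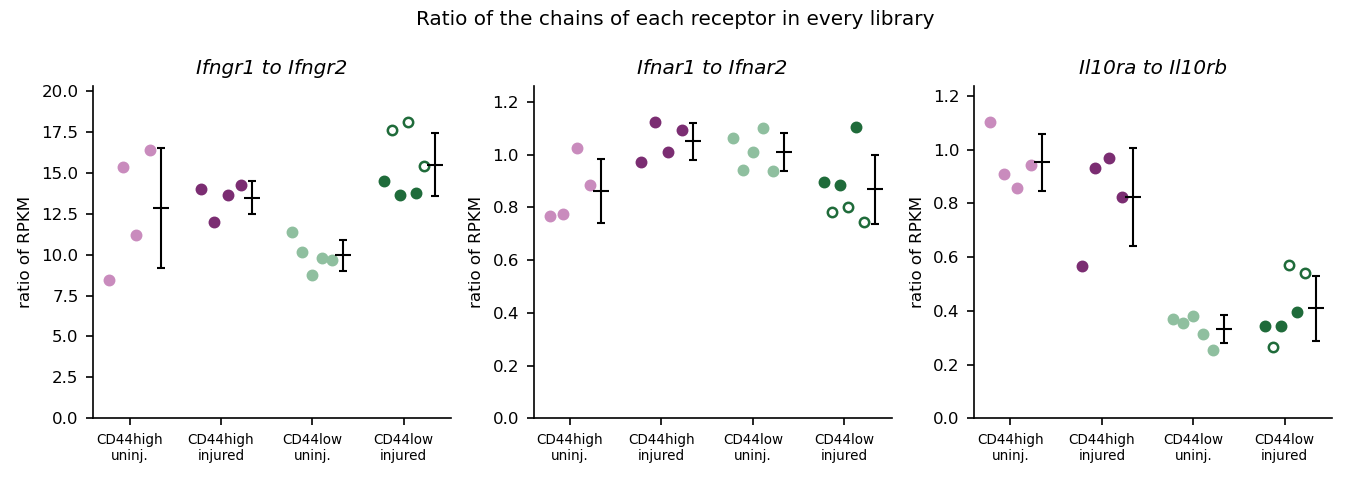
Ratio of RPKM of the chains of each receptor in every library (points), with the mean and SD of each group (black) and open points for libraries with a second number. *Il10ra* to *Il10rb* is highest in CD44high Tregs (means 0.953 and 0.823), and *Ifngr1* to *Ifngr2* in all 6 injured CD44low libraries is above the 5 uninjured ones.

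Ligands and signal transducers of the same receptors were taken from lists. Of 14 ligand genes 2 passed the filter on low counts. *Il10*, the ligand of IL10RA, stood between 9.45 and 15.4 CPM in CD44high and between 0.169 and 1.88 CPM in CD44low libraries of uninjured mice. It was higher in CD44high Tregs by 4.15 ± 0.49 on the log2 scale (adjusted p = 2.18e-07) and by 2.55 ± 0.42 in injured mice (adjusted p = 3.66e-05), so that receptor and ligand were both higher there. *Ifng*, the ligand of the interferon gamma receptor, lay between 0.393 and 3.90 CPM in all libraries and did not pass the test in any comparison. Of 5 further class II chains the soluble IL-22 binding protein *Il22ra2* alone passed the filter, and it was higher in CD44high Tregs by 4.95 ± 0.87 without and 3.71 ± 0.71 with injury (adjusted p = 6.29e-05 and 0.000231).

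Among 9 other kinases and signal transducers, 1 was higher and 5 were lower in CD44high Tregs of uninjured mice, and 0 and 5 in injured mice. Over all genes tested, 24.7% were higher and 21.3% lower in uninjured mice, and 20.1% and 17.2% in injured mice. *Jak3*, which serves the common gamma chain, was the higher one (0.62 ± 0.10, adjusted p = 3e-05), in contrast to *Jak1*. *Stat3*, which IL-10 activates, was lower (log2 fold changes of -0.30 and -0.38, adjusted p = 0.0264 and 0.00618). *Irf9*, which carries type I interferon signals, did not pass the test in any comparison, with log2 fold changes between -0.27 and 0.12. After injury 0 of the 9 passed in CD44low Tregs, where 7.6% of all genes tested did. In CD44high Tregs, where 2.38% did, *Stat4*, which serves IL-12, rose after injury (0.48 ± 0.11, adjusted p = 0.019). That call was lost without CD44high library 3, 4 or 5 of uninjured or 2 of injured mice (adjusted p between 0.0535 and 0.0696).

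Of 15 inhibitors of these pathways, 3 were higher and 4 lower in CD44high Tregs of uninjured mice, and 0 and 6 in injured mice. The shares of all genes tested were 24.7% and 21.3%, and 20.1% and 17.2%. After injury 2 rose and 3 fell in CD44high Tregs, and 3 rose and 0 fell in CD44low Tregs. Among all genes 1.06% rose and 1.33% fell in CD44high, and 4.24% and 3.36% in CD44low Tregs. *Socs1*, which blocks JAK kinases, was lower, with log2 fold changes of -0.63 ± 0.11 without and -1.19 ± 0.11 with injury (adjusted p = 5.48e-05 and 5.52e-09). It fell after injury in CD44high Tregs (-0.50 ± 0.12, adjusted p = 0.0182), where its injured libraries lay between 126 and 145 CPM and its uninjured ones between 169.7 and 224 CPM. This fall did not pass without CD44high library 2 or 3 of uninjured or 4 or 5 of injured mice (adjusted p between 0.052 and 0.109). *Cish*, an inhibitor induced by STAT5, fell in CD44high Tregs from between 451 and 531 CPM to between 216 and 309 CPM (-0.996 ± 0.142, adjusted p = 0.000217). *Socs2*, of the same family, fell there from between 56.8 and 81.4 CPM to between 35.1 and 44.1 CPM (-0.83 ± 0.15, adjusted p = 0.00208). Both falls passed the test with each library left out in turn. *Socs3*, which acts on gp130 receptors, was lower in CD44high Tregs (-0.57 and -0.79) and rose after injury in CD44low Tregs (0.53 ± 0.12, adjusted p = 0.00873). *Usp18*, which binds IFNAR2 and dampens its signal, was lower in CD44high Tregs (-1.70 ± 0.26 and -1.17 ± 0.24) and rose after injury in that subset (1.14 ± 0.27, adjusted p = 0.0215). There the injured libraries 2, 3, 4 and 5 held 56.7, 39.7, 110.5 and 37.2 CPM and the uninjured ones 18.4 to 44.8 CPM, so that the groups overlapped and library 4 stood apart. Without that library the value was 0.69 (adjusted p = 0.119), and the call was also lost without CD44high library 2, 4 or 5 of uninjured mice (adjusted p between 0.0644 and 0.0907). In CD44low Tregs *Usp18* was at 108 to 159 CPM in injured and 78.6 to 99.2 CPM in uninjured libraries, without overlap, and did not pass the test (0.61 ± 0.22, adjusted p = 0.086). *Cish* had the single call of the interaction in this list (-0.85 ± 0.19, adjusted p = 0.028), where 0.645% of all genes passed. *Ptpn6*, the phosphatase SHP-1, rose after injury in CD44high Tregs, from between 323 and 368 CPM to between 430.3 and 584 CPM (0.51 ± 0.12, adjusted p = 0.0171), and in CD44low Tregs (0.43 ± 0.10, adjusted p = 0.0113). The first of these calls was lost without CD44high library 5 of uninjured or 2 or 5 of injured mice (adjusted p between 0.0576 and 0.0747).

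Target genes of each pathway moved in both directions. Of 18 interferon gamma targets tested, 5 were higher and 3 lower in CD44high Tregs of uninjured mice, 3 and 3 in injured mice, 0 and 2 after injury in CD44high and 0 and 1 after injury in CD44low Tregs. In the same order the shares of all genes tested were 24.7% and 21.3%, 20.1% and 17.2%, 1.06% and 1.33%, and 4.24% and 3.36%. *Gbp2*, a guanylate-binding protein, was lower in CD44high Tregs (-0.67 and -0.94), and *Cxcl10*, a chemokine, was higher (1.73 and 2.51). *Gbp5* fell after injury in CD44low Tregs (-0.79 ± 0.18, adjusted p = 0.0109), the subset in which *Ifngr1* was at 0.76, and *Iigp1* fell in CD44high Tregs (-0.93 ± 0.20, adjusted p = 0.00904). The call of *Iigp1* was lost without CD44high library 3 of uninjured or 2 or 5 of injured mice (adjusted p between 0.0508 and 0.0607). The median log2 fold change of these 18 genes after injury was -0.06 in CD44low and -0.21 in CD44high Tregs, against 0.01 and -0.02 over all genes.

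Of 20 type I interferon targets, 3 were higher and 6 lower in CD44high Tregs of uninjured mice, and 4 and 2 in injured mice. For all genes tested the shares were 24.7% and 21.3%, and 20.1% and 17.2%. After injury 3 rose in CD44high and 2 in CD44low Tregs, and 0 fell. Of all genes 1.06% and 4.24% rose there, and 1.33% and 3.36% fell. *Isg15* and *Ifi44* rose in CD44high Tregs (1.23 ± 0.26 and 2.33 ± 0.58), *Bst2* rose in CD44low Tregs (0.54 ± 0.13), and *Oas1a* rose in both (0.72 ± 0.19 and 0.86 ± 0.18). The median of the 20 after injury was 0.72 in CD44high and 0.37 in CD44low Tregs. Library 4 of the injured CD44high group was the highest of the 4 for all 20 of these targets, at 70.3 CPM of *Isg15*, a ubiquitin-like protein, where the other 3 held 38.0 to 45.1 CPM. Without it the median in CD44high Tregs was 0.31 and 1 gene passed, *Isg15* (1.00, adjusted p = 0.0472), while *Ifi44* was at 1.75 (adjusted p = 0.138) and *Oas1a* at 0.66 (adjusted p = 0.125). The count of 3 was also 1 without CD44high library 4 or 5 of uninjured or 3 of injured mice. With each library left out in turn *Isg15* passed throughout, and *Oas1a* and *Bst2* passed throughout in CD44low Tregs. Of 7 IL-10 and STAT3 targets tested, 3 were higher and 2 lower in CD44high Tregs in both comparisons of the subsets. There 46.1% of all genes passed in uninjured mice (24.7% higher and 21.3% lower) and 37.4% in injured mice (20.1% and 17.2%). After injury 0 of the 7 rose and 1 fell in CD44high Tregs, and 1 rose and 1 fell in CD44low Tregs. The shares of all genes after injury are those given above for the type I interferon targets. Between the subsets *Nfil3* and *Batf*, transcription factors of activated T cells, were higher in CD44high Tregs (2.46 ± 0.18 and 2.00 ± 0.15 in uninjured mice). *Il4ra*, a receptor chain that also uses JAK1, was lower there (-1.18 ± 0.11).

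The genes whose patterns over the 19 libraries came nearest were sought for the 5 genes whose group means spanned at least 0.5 on the log2 scale. Likeness was the root-mean-square difference of centred log2 CPM. *Coq2* (0.18), *Bmyc* (0.19) and *Rrp9* (0.22) came nearest to *Ifngr1*, whose own root-mean-square deviation was 0.51. *Nop56*, *Pisd* and *Prmt3* (0.15 to 0.17) came nearest to *Ifngr2*, whose own deviation was 0.44. *Arrb2*, *Arhgef3* and *Glyr1* (0.10 to 0.14) came nearest to *Ifnar1*, whose own deviation was only 0.23. *Pear1*, *Mapk6* and *Fbxw17* (0.23 to 0.25) came nearest to *Il10ra*, whose own deviation was 0.65. *Stat5b*, a STAT protein used by receptors of the common gamma chain, came nearest to *Jak1* (0.10), followed by *Arhgap45* and *Add1* (0.10 and 0.11). The own deviation of *Jak1* was 0.37.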

How the data were processed

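RNA from 50000 sorted cells per sample was made into cDNA with SMART-Seq v4 and into libraries with a Swift 2S kit. The authors ran the VIPER workflow, in which STAR counted reads per gene, and deposited these raw counts unnormalized, 1 column per sample. The submitters' processing notes name bcl2fastq 2.18, STAR 2.5 and the builds mm9 and mm10 without their role, and no source used here names the annotation. The 19 columns of counts were mapped to samples by their labels, and symbols and transcript lengths came from GENCODE vM21, in which 24463 of 24982 symbols were matched.

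The analysis used edgeR 4.0.16 in R 4.3.3 (DESeq2 1.42.0 and limma 3.58.1 beside it), with edgeR's filter (minimum count 10), TMM factors and 1 mean per group. The two-sided quasi-likelihood test was adjusted by Benjamini-Hochberg over 11464 genes, and 95% intervals came from the same fit. Log2 CPM used a prior count of 2. The fit was tested on simulated data. Plots were made in matplotlib 3.10.9 under Python 3.11.15. The precision of each value is limited by library totals of 5582234 to 9433610 counts and by 4 to 6 libraries per group. Within groups no pair of libraries agreed within counting noise (chi-square per gene between 4.96 and 41.3), so none was taken as the same library sequenced again. Libraries made separately from the same mouse or pool would also differ by more than counting noise, so this cannot show that all were independent.

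The 9 genes and the gene lists were chosen with earlier results of these data known. Named pathway genes were *Stat3*, *Irf9*, *Jak3*, *Socs1*, *Socs3*, *Ifng* and *Il10*, and per list and comparison at most the 2 of smallest p in each direction among those that passed, and a result withheld for evaluation is not reported here. Nearest patterns were the 3 genes of smallest root-mean-square difference. Alternatives were DESeq2, the compared groups alone, RLE size factors, no filter, a replicate block, libraries 1 with 1_2 and 5 with 5_2 summed, either set of injured CD44low libraries left out, the study's threshold, and each library left out in turn. The length of all annotated exons, the sums of marker genes, and the pathway genes after injury with each library left out were added after seeing the data. Other assays of the study were not analysed here.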

Additional observations from a re-analysis of the deposited data

Results flagged for a closer look

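Within the 36 groups of values that the 9 genes and 4 groups make, 3 had a library that stood far from the others by Dixon's test at 95%, where chance gives about 1 in 20 groups. *Il10rb* in injured CD44high Tregs was highest in library 2, at 143.1 CPM, with the other libraries between 127.3 and 129.9 CPM. *Jak2* in uninjured CD44high Tregs was lowest in library 3, at 97.0 CPM, with the others between 126 and 129 CPM. *Tyk2* in uninjured CD44low Tregs was highest in library 1, at 182 CPM, with the others between 121 and 131 CPM. None of these genes passed the test in the comparisons that use these groups.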

How the results depend on the processing

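Of 45 values (9 genes in 5 comparisons), 13 passed the test, and none of these 13 changed sign under up to 27 alternatives each. Setting the study's threshold aside, 10 of the 13 passed under all alternatives run. The exceptions were *Ifngr1* after injury in CD44high Tregs (18 of 27) and *Ifnar2* between the subsets (21 of 27 in uninjured and 20 of 27 in injured mice). The 18 leaves out the fit without CD44low library 3 of uninjured mice, where *Ifngr1* passed with an adjusted p that rounds to 0.05. At the study's threshold the counts of genes were 1 and 0 between the subsets in uninjured and injured mice and 0 after injury in each subset. The count of 1 after injury in CD44high Tregs became 2 with the compared groups alone or without libraries 1_2, 4_2 and 5_2 (*Ifnar1* added), 0 with no filter on low counts, and between 0 and 1 with each library left out. The count of 1 after injury in CD44low Tregs became 2 without libraries 1, 2 and 5 (*Ifnar1* added) and lay between 1 and 2 with each library left out. Without libraries 1, 2 and 5 the count of the interaction was 1 instead of 0 (*Ifnar1*). The causes were not tested. The fewest counts of the 9 genes over a group were 1147, for *Ifngr2* in uninjured CD44high Tregs. Over all genes, calls after injury were 273 in CD44high and 871 in CD44low Tregs and 74 in the interaction, and with the other settings, single libraries left out and the study's threshold apart, they were 242 to 601, 440 to 1748 and 57 to 314.

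Same-numbered libraries of different groups correlated between -0.12 and 0.167 in their deviations from the group means. Between the subsets of uninjured mice these correlations were -0.00685 to 0.119, against -0.0798 to 0.0395 for other numbers. Between the subsets of injured mice they were -0.0537 to 0.167, against -0.452 to 0.41. Correlations this weak cannot show whether the numbers pair the samples. With the first number of the label as a replicate block, the counts of genes between the subsets stayed at 6 and 5, after injury became 0 in CD44high and stayed at 1 in CD44low Tregs, and stayed at 0 for the interaction, while calls over all genes after injury in CD44low Tregs went from 871 to 440.

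Of the 32 values that did not pass, 14 changed sign under some alternative, from values between -0.20 and 0.13. On the log2 scale *Ifnar1* between the subsets in injured mice was -0.0102 with DESeq2, -0.0142 with the compared groups alone, -0.0109 with RLE size factors, -0.0144 with no filter, -0.0349 with the block and -0.212 without libraries 1_2, 4_2 and 5_2. *Ifnar2* in the interaction was -0.0189, -0.0200, -0.0108 and -0.0264 with DESeq2, RLE size factors, no filter and the block, -0.00647 with libraries summed and -0.0804 without libraries 1_2, 4_2 and 5_2. *Jak2* in the interaction was -0.0153, -0.0157, -0.00457 and -0.0790 with the same 4 settings and -0.0785 without libraries 1, 2 and 5. After injury in CD44high Tregs *Il10rb* was 0.0227 with the compared groups alone, 0.0130 with no filter and 0.00610 without libraries 1, 2 and 5, and *Tyk2* was 0.0252, 0.0173 and 0.00984 in the same order and 0.000171 without libraries 1_2, 4_2 and 5_2. With the block *Il10rb* between the subsets in uninjured mice was 0.00941. Without libraries 1_2, 4_2 and 5_2 *Ifnar1* after injury in CD44low Tregs was 0.0191 and *Jak1* in the interaction -0.0200, and without libraries 1, 2 and 5 *Ifnar2* after injury in CD44low Tregs was -0.0485. With each library left out in turn, the ranges that crossed 0 between the subsets were -0.0568 to 0.0560 for *Ifnar1* in injured mice, and -0.0462 to 0.0215 for *Il10rb* and -0.0777 to 0.200 for *Tyk2* in uninjured mice. After injury in CD44high Tregs they were -0.0339 to 0.0284 for *Il10rb*, -0.122 to 0.163 for *Tyk2*, -0.109 to 0.0717 for *Jak1* and -0.0389 to 0.121 for *Ifnar2*, and in CD44low Tregs -0.0936 to 0.0231 for *Jak1*. In the interaction they were -0.0556 to 0.0810 for *Ifnar2*, -0.101 to 0.137 for *Jak2*, -0.0571 to 0.0993 for *Jak1* and -0.00402 to 0.276 for *Ifngr2*.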
